A study of Mus musculus with 10 samples.

Results

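*Fos*, *Fosb*, *Jund*, *Egr2*, *Nr4a2*, *Nr4a3* and *Dusp1* are early response genes, and their signals were compared between E11.5 and E17.5 in cells of the distal tips of the developing mouse lung. These 7 genes, out of 17813 measured, were selected as genes known to respond to growth factors and to cell dissociation, and they were proposed with their stage differences on these same arrays in view. Their values at the stages are therefore a description, and no test is given for them. A probe set that names 1 gene only was found for 7 of 7, and each gene rests on that 1 probe set.

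The series holds 10 Affymetrix mouse arrays, 5 for each stage, read as log2 signals. All embryos carried *Id2-CreER* and *Rosa26R-fGFP* and came from crosses of *Id2-CreER* heterozygous with *Rosa26R-fGFP* homozygous mice. The E11.5 tips were dissected by hand after 5 min in dispase at 16 U/ml, with no tamoxifen named for them. For E17.5, mothers received tamoxifen at 150 µg per g body weight at E16.5, the lungs were taken apart to single cells with trypsin and EDTA, and GFP+ cells were collected by flow cytometry. Cre is driven here from *Id2*, so GFP marks cells in which *Id2* was active when tamoxifen was given, and the study's methods state that a few immediate descendants of tip cells were included. Stage, tamoxifen, enzymatic dissociation and sorting all changed together, so that they cannot be told apart. Each array is labelled as a biological replicate of its stage. No source says whether they came from separate litters, and p-values measure only the spread between these arrays.

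Early response genes are transcribed within minutes of a stimulus, without the need for new protein. Growth factors, stress and the dissociation of a tissue act through MAP kinases on the serum response factor with its ternary complex partners and on CREB, which sit on the promoters of these genes beforehand. *Fos*, *Fosb* and *Jund* encode subunits of AP-1, a dimer of a Fos family and a Jun family protein, or of Jun proteins alone. *Egr2* encodes a zinc finger factor, *Nr4a2* and *Nr4a3* orphan nuclear receptors that act without a known hormone, and *Dusp1* a phosphatase that switches MAP kinases off again.

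The promoters of the members are shown because the rule did not use them and because the motifs of this pathway can be read in them. In the RefSeq promoter table of GRCm38.p6, which holds 250 bases before and 50 bases after each start, all 7 members were found. The stretches below run 5′ to 3′ on the strand of the gene and end before the start. Capitals mark the short CRE motif bound by CREB and ATF proteins (TGACG, or CGTCA on the other strand), the full CRE (TGACGTCA, which holds 2 overlapping short motifs), the Egr site and the CArG box of the serum response factor.
Fos, chr12:85473749-85473840, plus strand: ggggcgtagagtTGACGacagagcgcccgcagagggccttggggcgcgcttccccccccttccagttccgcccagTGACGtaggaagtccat
Fosb, chr7:19310075-19310117, minus strand: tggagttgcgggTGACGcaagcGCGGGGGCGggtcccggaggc
Egr2, chr10:67537746-67537830, plus strand: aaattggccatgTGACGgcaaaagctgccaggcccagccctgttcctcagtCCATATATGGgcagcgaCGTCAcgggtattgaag
Nr4a2, chr2:57124098-57124215, minus strand: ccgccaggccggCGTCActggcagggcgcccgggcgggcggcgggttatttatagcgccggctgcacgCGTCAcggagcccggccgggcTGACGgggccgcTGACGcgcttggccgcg
Nr4a3, chr4:48045062-48045174, plus strand: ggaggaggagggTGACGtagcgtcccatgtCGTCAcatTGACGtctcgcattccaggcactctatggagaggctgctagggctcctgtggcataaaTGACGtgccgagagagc
Dusp1, chr17:26508596-26508675, minus strand: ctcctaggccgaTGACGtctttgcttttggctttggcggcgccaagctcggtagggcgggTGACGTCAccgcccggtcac

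Both strands of each window were searched. The short CRE motif occurred in the windows of *Fos* (2 matches), *Fosb* (1), *Egr2* (2), *Nr4a2* (4), *Nr4a3* (4) and *Dusp1* (3), against 20.8% of all 32851 promoters in the table. The full CRE was found in *Dusp1* only among the members, and in 1.79% of all promoters. *Egr2* has 5 starts in the table, and a CArG box lay before 4 of them and the short CRE motif before 3. Of all promoters, 1.63% held a CArG box. *Fosb* had an Egr site (GCGGGGGCG or GCGTGGGCG), which 3.47% of promoters held. The AP-1 site (TGACTCA or TGAGTCA) stood in 5.20% of promoters and in no member's window. No letters of these motifs were in the *Jund* window. Members that were higher at E17.5 (*Fos*, *Fosb*, *Egr2* and *Dusp1*) and members that were lower (*Nr4a2* and *Nr4a3*) thus both carried the short CRE motif. A match is a run of letters, and binding was not measured. Bases further from the start were not searched, so a motif missing from a window may still lie outside it.

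*Fos* was low and uneven at E11.5 and high and even at E17.5. Its log2 signal was 7.84, 5.98, 6.51, 6.89 and 6.75 on E11.5 replicates 1 to 5 and 14.12, 13.97, 13.99, 14.05 and 14.07 on E17.5 replicates 1 to 5. The lowest E17.5 array lay 6.13 above the highest E11.5 array. The means were 6.80 ± 0.68 (SD, n = 5) and 14.04 ± 0.06 (SD, n = 5), a log2 difference of 7.24 (SE 0.26) or 151-fold. The E17.5 values lie close to the highest signal on any array, 14.94 to 15.03, which limits what their size and evenness can show.

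*Fosb*, which encodes a partner of Jun proteins like *Fos* does, was dim at E11.5 and bright at E17.5. On E11.5 replicates 1 to 5 it was at 3.89, 3.95, 4.14, 3.90 and 3.80, and on E17.5 replicates 1 to 5 at 12.44, 12.09, 12.16, 12.34 and 12.49. The arrays of a stage lay within 0.34 and 0.40 log2 units of each other, and the stages were 7.95 apart at their nearest. The log2 difference was 8.37 (SE 0.10), or 331-fold, from a mean of 3.93 ± 0.13 to one of 12.31 ± 0.17 (SD, n = 5 each). The E11.5 signals lie near the floor of the table, where the lowest value is 2.47, so the size of this fold is uncertain.

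*Jund*, the Jun family member that is widely found in unstimulated cells, ran the other way. Its log2 signals of 9.78, 9.73, 9.67, 9.54 and 9.55 on the E11.5 arrays stood above 6.17, 6.31, 6.13, 6.06 and 6.13 on the E17.5 arrays. No E17.5 array came within 3.23 of an E11.5 array. The mean was 9.65 ± 0.11 (SD, n = 5) at E11.5 and 6.16 ± 0.09 (SD, n = 5) at E17.5, a log2 difference of -3.49 (SE 0.08), or 11.3-fold lower at E17.5. Whether the single probe sets of *Jund* and *Nr4a2* match the protein-coding transcripts was not checked here.

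*Egr2*, best known for its part in hindbrain patterning and myelination, had log2 signals of 4.95, 4.94, 4.36, 4.82 and 4.73 at E11.5. At E17.5 they were 12.43, 12.05, 12.42, 11.93 and 11.80. All E17.5 arrays were higher, by at least 6.85. The means were 4.76 ± 0.24 and 12.12 ± 0.29 (SD, n = 5 each), a log2 difference of 7.36 (SE 0.15), or 165-fold. The E11.5 signals are low in the range, where the array medians are 7.01 to 7.14, so the size of this fold is uncertain too.

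Both *Nr4a* members were lower at E17.5, and by less than the other members differed. *Nr4a2* had log2 signals of 8.01, 7.97, 7.79, 7.85 and 7.59 at E11.5 and of 6.58, 6.23, 6.80, 6.39 and 6.41 at E17.5. The means of 7.84 ± 0.17 and 6.48 ± 0.22 (SD, n = 5 each) differed by -1.36 (SE 0.12), which is 2.57-fold lower at E17.5. The nearest arrays of the stages were 0.79 apart.

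*Nr4a3* was at 3.96, 3.97, 4.22, 4.02 and 4.10 at E11.5 and at 3.30, 3.12, 3.83, 3.07 and 3.20 at E17.5. Its signals also lie near the floor of the table at both stages, and E17.5 replicate 3 stood only 0.13 below the lowest E11.5 array. The means were 4.05 ± 0.11 and 3.30 ± 0.31 (SD, n = 5 each), a log2 difference of -0.75 (SE 0.14), or 1.68-fold lower.

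*Dusp1* was strong at both stages. At E11.5 its log2 signals were 11.13, 10.71, 10.67, 10.90 and 10.63, and at E17.5 they were 13.77, 13.75, 13.75, 13.55 and 13.72. The stages were 2.41 apart at their nearest. The means were 10.81 ± 0.21 and 13.71 ± 0.09 (SD, n = 5 each), a log2 difference of 2.90 (SE 0.11), or 7.45-fold.

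**Figure D1:**
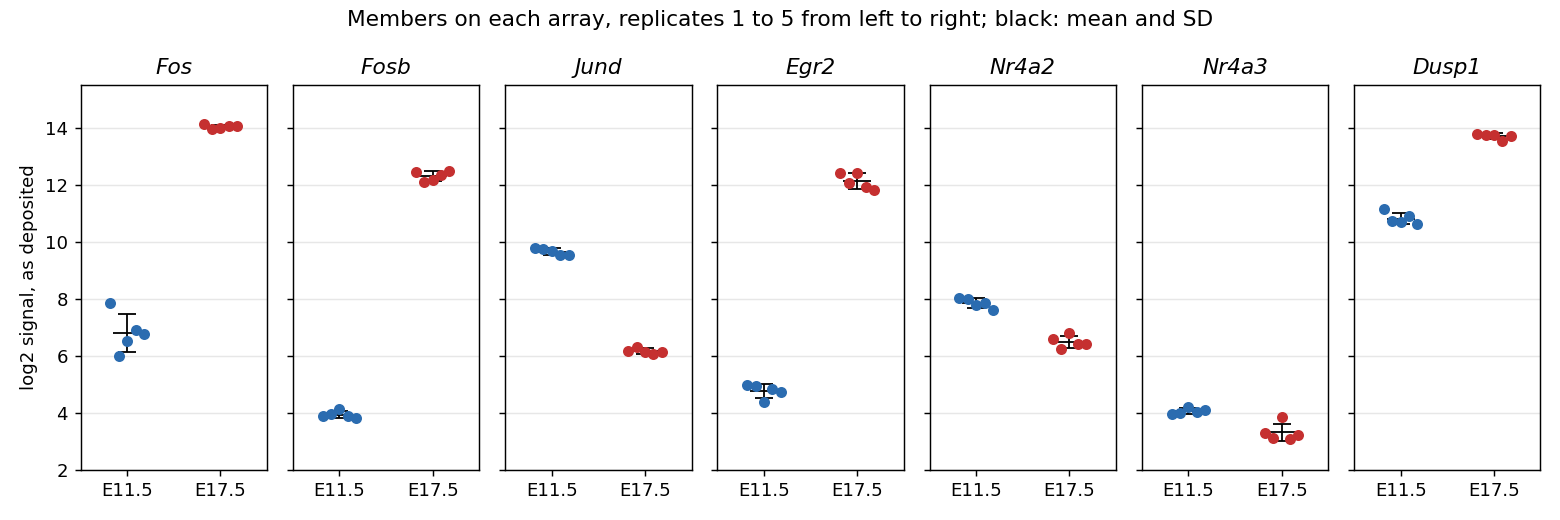
Log2 signal as deposited (y axis) of each member on the 5 E11.5 arrays (blue) and the 5 E17.5 arrays (red), replicates 1 to 5 from left to right within a stage, with the mean and SD in black. The E17.5 points lie above the E11.5 points for *Fos*, *Fosb*, *Egr2* and *Dusp1* and below them for *Jund*, *Nr4a2* and *Nr4a3*, and the stages come nearest to each other in *Nr4a3*.

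The groups of arrays did not overlap for 7 of 7 members, 4 above and 3 below. Of all genes, 32.3% had every E17.5 array above every E11.5 array and 26.3% had every one below. Because the members were chosen on this contrast, nothing is read from these counts.

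On E11.5 arrays, the members did not vary alike. *Fos* had the widest spread, with an SD of 0.68 that was larger than that of 97.5% of 1663 genes within 0.5 log2 units of its mean signal (median SD 0.20). *Dusp1* (SD 0.21) exceeded 80.4% of genes of like signal, *Egr2* 63.8%, *Nr4a2* 48.8%, *Jund* 30.4%, *Fosb* 28.4% and *Nr4a3* 18.2%. E11.5 replicate 1 gave the highest E11.5 signal for 5 of the 7 (*Fos*, *Jund*, *Egr2*, *Nr4a2* and *Dusp1*). That replicate was also the highest of its stage for 32.7% of all genes. Among the marker lists described below, the macrophage (6.48), endothelial (6.68) and mesenchymal (8.42) means were highest of the stage on it. The epithelial mean (11.66) was lowest there. On replicate 2, where *Fos* but no other member was lowest, the macrophage (5.65), endothelial (5.52) and mesenchymal (7.15) means were lowest. The part of these lists in the signals of the members was not tested.

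At E17.5 the order of the spreads was another one. *Nr4a3* (SD 0.31) and *Egr2* (SD 0.29) varied more than 91.7% and 89.4% of genes of like signal, and *Fos* (SD 0.06) more than 24.5%. *Jund* (SD 0.09) varied less than nearly all genes of its level, where the median SD was 0.31 and 2.16% of 1576 genes had a smaller one. *Nr4a2*, *Nr4a3* and *Egr2* shared E17.5 replicates 1 and 3 as the highest pair of their stage. These readings of spread were chosen after the values were seen and carry no test.

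The other early response genes, a list of 68 genes without the members, moved mostly upward. In limma, 57 of them (83.8%) rose, against 36.9% of all genes called higher at E17.5, and 7 (10.3%) fell, against 31.5% of all genes called lower. Their median log2 difference was 2.19, where that of all genes was 0.03 (-0.04 after quantile normalization and -0.10 after centring each array on its median). The mean log2 signal of the list was 8.19 to 8.21 on the E11.5 arrays and 10.32 to 10.62 on the E17.5 arrays. The list was drawn up with earlier results of these arrays known, so its direction is not independent evidence.

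Macrophage and endothelial markers were mostly higher at E17.5 too. Of 15 macrophage markers 13 rose (86.7%, against 36.9% of all genes), with a median log2 difference of 3.77. *Itgam* (0.18) and *C1qb* (0.17) did not pass the test. The mean log2 signal of this marker list was 5.65 to 6.48 on the E11.5 arrays and 8.90 to 9.91 on the E17.5 arrays. Of 10 endothelial markers 9 rose (90%, against 36.9% of all genes), with a median of 4.30, and *Egfl7* (-0.41) did not pass. The mean signal of the endothelial list was 5.52 to 6.68 on the E11.5 arrays and 8.97 to 10.90 on the E17.5 arrays. The genes behind the macrophage means include the lysozyme gene *Lyz2* (7.53), *Ptprc*, the leukocyte antigen CD45 (4.6), *Cd53* (6.47) and *Cd14* (4.74). Behind the endothelial means are, among others, the endothelial adhesion gene *Pecam1* (5.27), *Emcn* (5.99), *Cldn5* (4.99) and *Tie1* (4.6). Their part in the signals of the early response genes was not tested. In bulk samples such as these, more cells of a type and more RNA per cell cannot be told apart.

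Of the 14 other AP-1 subunits, 10 rose, 3 fell and *Mafg* did not pass the test (log2 difference 0.32, adjusted p = 0.12 in limma). *Atf3*, a stress-induced factor that pairs with Jun proteins, had log2 signals of 7.58, 7.44, 6.97, 7.39 and 7.23 at E11.5 and 13.80, 13.61, 13.48, 13.89 and 13.82 at E17.5. It rose 84.4-fold (log2 difference 6.40, SE 0.13, adjusted p = 1.4e-12 in limma), the largest change in this list. The groups of arrays lie far apart, as they do for *Fos* and *Fosb*.

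The other Jun genes were higher at E17.5. *Junb* rose 17.8-fold (log2 difference 4.15, adjusted p = 1.8e-11 in limma), from 5.98, 6.03, 5.87, 5.88 and 5.58 to 10.32, 9.87, 10.08, 9.87 and 9.94. *Jun* rose 2.77-fold (log2 difference 1.47, adjusted p = 8.8e-09 in limma), from 12.03, 12.07, 12.11, 12.09 and 11.94 to 13.53, 13.49, 13.34, 13.56 and 13.67. On the single probe set of *Jund* the arrays were all lower at E17.5.

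Among Fos relatives, *Fosl1* rose by 2.28 and *Fosl2* by 1.15 on the log2 scale, both far less than the difference seen in *Fos* and *Fosb*. The small Maf genes *Maff* (3.91) and *Mafk* (2.19), which pair with other basic leucine zipper proteins, the lymphoid and myeloid factor genes *Batf* (2.67) and *Batf2* (0.57), and *Atf2* (1.25) rose too. The genes that fell were *Batf3* (-0.73), *Atf7* (-1.27) and *Jdp2*, a repressor of AP-1 (-1.33).

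The Egr family and its co-repressors rose with one exception. *Egr1*, which recognises the same DNA motif as *Egr2*, went from 8.50, 7.50, 7.49, 7.98 and 8.35 to 14.15, 14.14, 14.13, 14.16 and 14.19. It rose 73.2-fold (log2 difference 6.19, SE 0.19, adjusted p = 3.2e-11 in limma). Its E17.5 signals lie as close to the top of the range as those of *Fos*, with the same limit on their size and evenness. *Nab1* (3.49) and *Nab2* (2.37), whose products bind Egr proteins and repress them, and *Egr3* (1.32) also rose. *Egr4* had a log2 difference of 0.21 and did not pass (adjusted p = 0.10 in limma), with signals of 6.43 to 6.81 on the E11.5 arrays and 6.70 to 7.01 on the E17.5 arrays.

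The third gene of the Nr4a family went against the members from it. *Nr4a1*, involved in the death and survival of lymphocytes, had log2 signals of 7.09, 7.15, 7.09, 7.04 and 7.0 at E11.5 and of 12.21, 12.08, 11.73, 12.16 and 12.39 at E17.5. It rose 32.8-fold (log2 difference 5.04, SE 0.11, adjusted p = 3.7e-12 in limma), while the arrays of *Nr4a2* and *Nr4a3* were all lower at E17.5.

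Of the 9 other MAP kinase phosphatases measured, 8 rose and 1 fell. The rises ran from 1.11 on the log2 scale for *Dusp6*, an ERK phosphatase of the cytoplasm that FGF signalling induces, to 2.19 for *Dusp16*, and each was smaller than the difference in *Dusp1*. Between them were *Dusp5* (2.04), *Dusp8* (1.73), *Dusp7* (1.44), *Dusp2* (1.40), *Dusp4* (1.37) and *Dusp10* (1.22). *Dusp9*, which fell by 4.32 on the log2 scale (SE 0.16, adjusted p = 1.9e-10 in limma), went from 10.83, 11.16, 11.29, 11.10 and 11.24 to 6.75, 6.33, 6.89, 7.31 and 6.72.

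Of 39 further immediate early genes, 34 rose and 3 fell, with a median log2 difference of 3.19. *Ptgs2*, the inducible enzyme of prostaglandin synthesis, went from 2.94 to 3.54 on the E11.5 arrays to 9.85 to 10.89 on the E17.5 arrays (log2 difference 7.22, adjusted p = 1.3e-11 in limma), and its E11.5 signals lie near the floor, so the size of its rise is uncertain. *Plk2*, a stress-responsive kinase (5.28), *Zfp36*, which speeds the decay of cytokine mRNAs (5.21), and *Klf2*, a factor of endothelial cells and lymphocytes (5.12), rose too. *Zfp36l1* (-1.44), *Homer1* (-1.55) and the kinase gene *Pim1* (-2.22) fell. *Klf10* (0.07) and *Npas4* (0.03) did not pass. These last 2 were named after their values were seen.

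**Figure D2:**
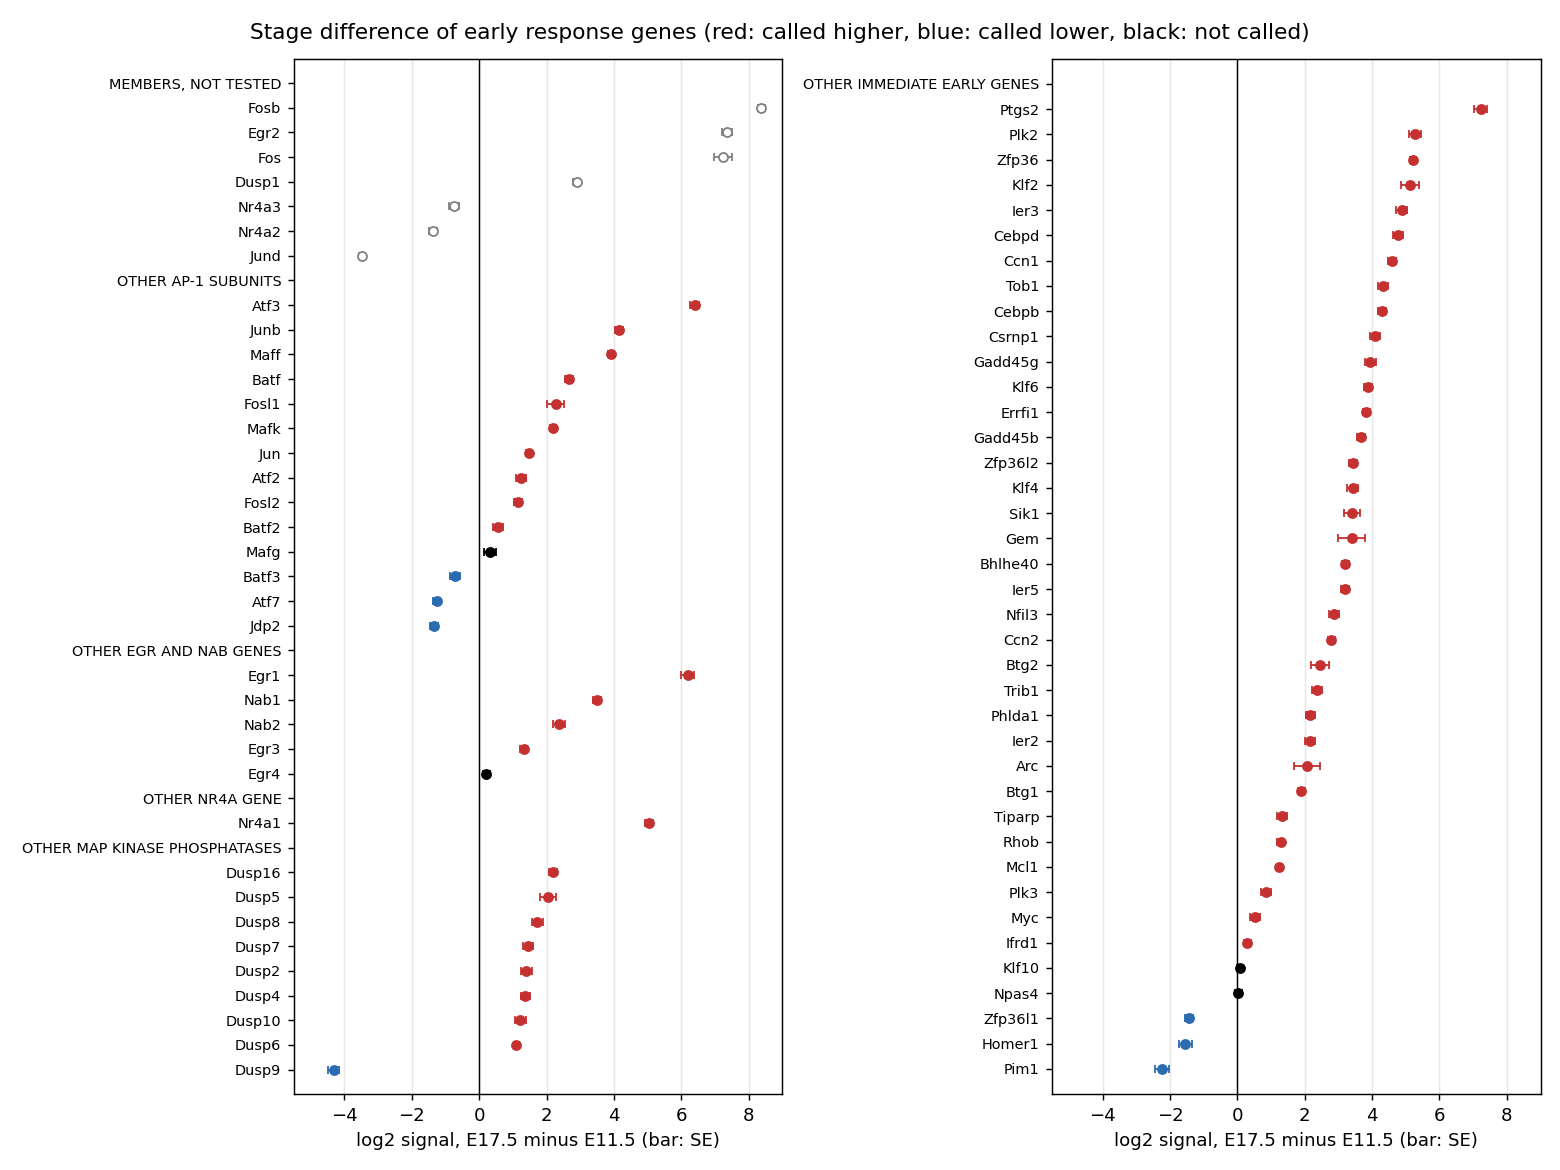
Log2 signal at E17.5 minus E11.5 (x axis) with its SE for the 7 members (open circles, not tested) and the 68 other early response genes (red, called higher in limma; blue, called lower; black, not called), ordered by size within each list. Most points lie right of 0, with *Fosb* at 8.37, *Ptgs2* at 7.22 and *Atf3* at 6.40, and *Dusp9* lies furthest left at -4.32.

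The signalling steps and factors upstream were more evenly divided. Of 44 such genes listed, 35 were measured, and 20 of them rose and 11 fell, with a median log2 difference of 0.50. These are 57.1% higher and 31.4% lower, against 36.9% and 31.5% of all genes. The share that fell is thus about that of all genes. After quantile normalization 15 rose and 14 fell. That setting moved the counts over all genes outside the members the same way, from 6564 higher and 5606 lower to 5672 and 6946. In the part on the serum response factor, its partners and CREB, 9 of 15 rose and 4 fell (7 and 5 after quantile normalization). *Srf*, which encodes the serum response factor, rose by 2.70 and *Crem*, a relative of CREB, by 2.64. *Elk4*, a ternary complex factor (-3.12), and *Mrtfb*, an actin-regulated partner of the serum response factor (-2.25), fell.

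In the MAP kinase cascade, 11 of 20 genes rose (55%) and 7 fell (35%), against 36.9% and 31.5% of all genes. After quantile normalization 8 of them rose and 9 fell. *Mapk14*, which encodes the stress kinase p38 alpha, rose by 4.42 on the log2 scale and *Map2k6*, which encodes a kinase that activates p38, fell by 2.33. *Ksr1*, a scaffold of the ERK cascade (2.02), and *Map2k5* (1.88) rose. The other 8 genes listed for the cascade were not analysed here.

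Inhibitors and targets of ERK and FGF signalling were divided as well. Of 8 measured genes 3 rose (37.5%), namely *Spry1* (2.70), *Spred1* (1.91) and *Il17rd* (1.55). This is about the share of all genes that rose, 36.9%. Another 4 fell (50%, against 31.5% of all genes). The falls included *Spry2* (-2.79) and *Spred2* (-2.90), both inhibitors of the same step as *Spry1* and *Spred1*. The other genes that fell were the ETS factors of the FGF response *Etv5* (-1.35) and *Etv4* (-1.87), and *Spry4* (-0.18) did not pass the test. The median log2 difference of this list was -0.76, against 2.19 for the early response list.

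Genes known as AP-1 targets, 13 measured, gave 8 rises and 1 fall, with a median log2 difference of 0.85. These are 61.5% higher and 7.69% lower, against 36.9% and 31.5% of all genes. *Cd44*, a hyaluronan receptor (4.74), *Tgfb1* (4.28) and *Itga5*, the alpha chain of the fibronectin receptor (4.13), rose. *Ccnd1*, which encodes cyclin D1, fell 21.3-fold (log2 difference -4.41, adjusted p = 1.0e-10 in limma), from 11.78 to 12.19 on the E11.5 arrays to 7.24 to 7.95 on the E17.5 arrays. After quantile normalization, and without E17.5 replicate 5, 2 genes of this list fell.

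Genes induced by heat and by unfolded protein were looked at beside the early genes, since they respond to handling too. Of 11, 8 rose and 3 fell (6 and 4 after quantile normalization), with a median of 0.96. As deposited, 72.7% were higher and 27.3% lower, against 36.9% and 31.5% of all genes. *Hspb1* rose by 3.95 and *Hspa1b* by 1.93. *Hspa1a*, the inducible Hsp70 gene, rose by 3.38 (SE 0.47), from 3.99, 4.05, 4.20, 4.14 and 3.96 to 6.61, 7.61, 7.90, 5.92 and 9.16, so that its E17.5 arrays differed among themselves by over 3 log2 units. *Hspd1* (-1.43) and *Hspe1* (-1.68), a mitochondrial chaperone and its co-chaperone, and *Hsph1* (-3.45) fell.

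*Dusp1* is also a gene that glucocorticoids induce. Of 7 genes listed for the glucocorticoid receptor and its induced genes, 6 rose (85.7%, against 36.9% of all genes). Among them were the kinase gene *Sgk1* (3.96), the clock gene *Per1* (3.74), *Fkbp5* (3.39) and *Zbtb16* (2.74). The receptor gene *Nr3c1* had a log2 difference of -0.12 and did not pass the test, though it was called lower after quantile normalization and after median centring.

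The labels call the samples of both stages lung epithelial tip, and epithelial genes were present at both. The mean log2 signal of 11 epithelial and tip markers was 11.66 to 11.87 on the E11.5 arrays and 12.51 to 12.84 on the E17.5 arrays. Of them 7 rose and 2 fell, or 6 and 3 with quantile-normalized arrays. As deposited, 63.6% were higher and 18.2% lower, against 36.9% and 31.5% of all genes. *Sftpc* (2.54), *Krt19* (2.23), *Id2* (2.10) and *Epcam* (1.91) rose, and *Foxa1* (-0.48) and *Foxa2* (-0.92) fell. The tip factor *Sox9* (-0.02) and the lung factor *Nkx2-1* (0.10) did not pass. Of 12 mesenchymal markers 4 rose (33.3%) and 4 fell (33.3%), which is near the shares of all genes. The mean log2 signal of the mesenchymal list was 7.15 to 8.42 on the E11.5 arrays and 8.23 to 9.23 on the E17.5 arrays. *Tcf21* (4.95), *Acta2* (4.32) and *Col1a2* (2.77) rose and *Myh11* (-2.18) fell. Of 6 erythroid markers 5 fell, led by the embryonic globin genes *Hbb-y* (-7.84), *Hba-x* (-6.72) and *Hbb-bh1* (-6.04), while *Alas2* (1.48) rose.

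**Figure D3:**
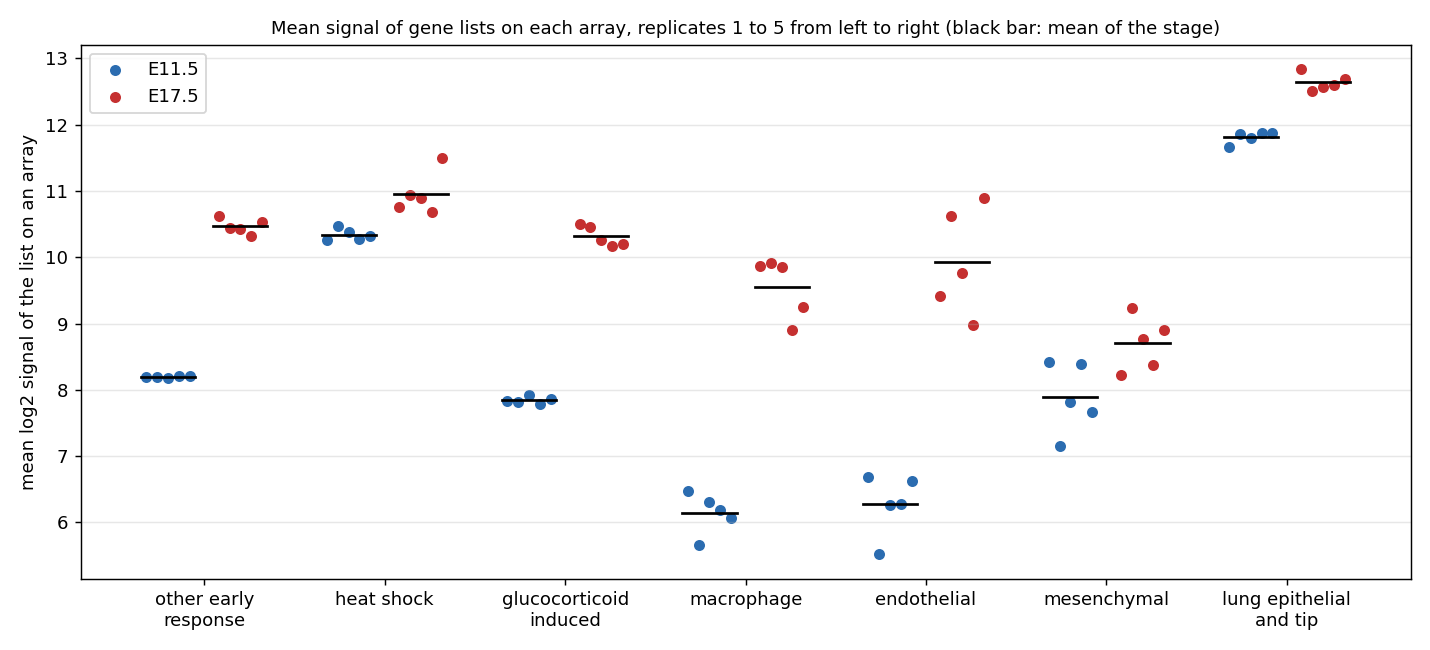
Mean log2 signal of 7 gene lists (y axis) on each of the 5 E11.5 arrays (blue) and the 5 E17.5 arrays (red), replicates 1 to 5 from left to right, the bar being the stage mean. The mean of the 68 early response genes runs from 8.19 to 8.21 at E11.5 and from 10.32 to 10.62 at E17.5. That of the 10 endothelial genes runs from 8.97 to 10.90 at E17.5. A mean over more genes can vary less, so the ranges of lists of unlike size are not compared.

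Within E17.5, the other early response genes were not placed evenly over the arrays. E17.5 replicate 1 was above the stage mean for 52 of the 68 genes (76.5%), where it was for 50.6% of all genes, and it held the highest E17.5 value for 30 of 68 (44.1%, against 25% of all genes). E17.5 replicate 4 was above the stage mean for 20 of 68 (29.4%, against 49.5% of all genes). It held the lowest value for 40 of 68 (58.8%, against 23.2% of all genes). By family, the mean of the 39 further immediate early genes was lowest on replicate 4 (10.96, others 11.14 to 11.42). The means of the other AP-1 subunits (9.18, stage range 9.02 to 9.24) and of the Egr and Nab genes (9.43, 9.31 to 9.48) were not lowest there. Nor were the MAP kinase phosphatases (9.61, 9.61 to 9.77) and *Nr4a1* (12.16, 11.73 to 12.39). *Gem*, a small GTP-binding protein, was at 8.40 on replicate 4 and at 9.43 to 9.87 on the others, and *Btg2* was at 13.33 on replicate 1 and at 12.10 to 12.89 on the others.

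The members followed this in part. E17.5 replicate 1 was above the stage mean for 6 of 7 and replicate 4 for 2 of 7, *Fos* and *Fosb*. *Jund*, *Nr4a3* and *Dusp1* had their lowest E17.5 value on replicate 4. On that replicate the macrophage list (8.90, others 9.24 to 9.91), the endothelial list (8.97, others 9.42 to 10.90), the heat shock list (10.68, others at least 10.77), the AP-1 targets (7.24, others 7.75 to 7.81), the glucocorticoid list (10.17, others 10.21 to 10.51) and the ERK feedback list (7.83, others 7.87 to 7.97) also had their lowest mean signal of the stage. The mesenchymal list (8.38) and the epithelial list (12.61) were lower on another replicate, at 8.23 on replicate 1 and 12.51 on replicate 2. The part of these lists in the early response signals was not tested. Without E17.5 replicate 4 the early response list again had 57 genes that rose and 7 that fell. These readings within a stage were chosen after the values were seen, and no test was made of them.

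**Figure D4:**
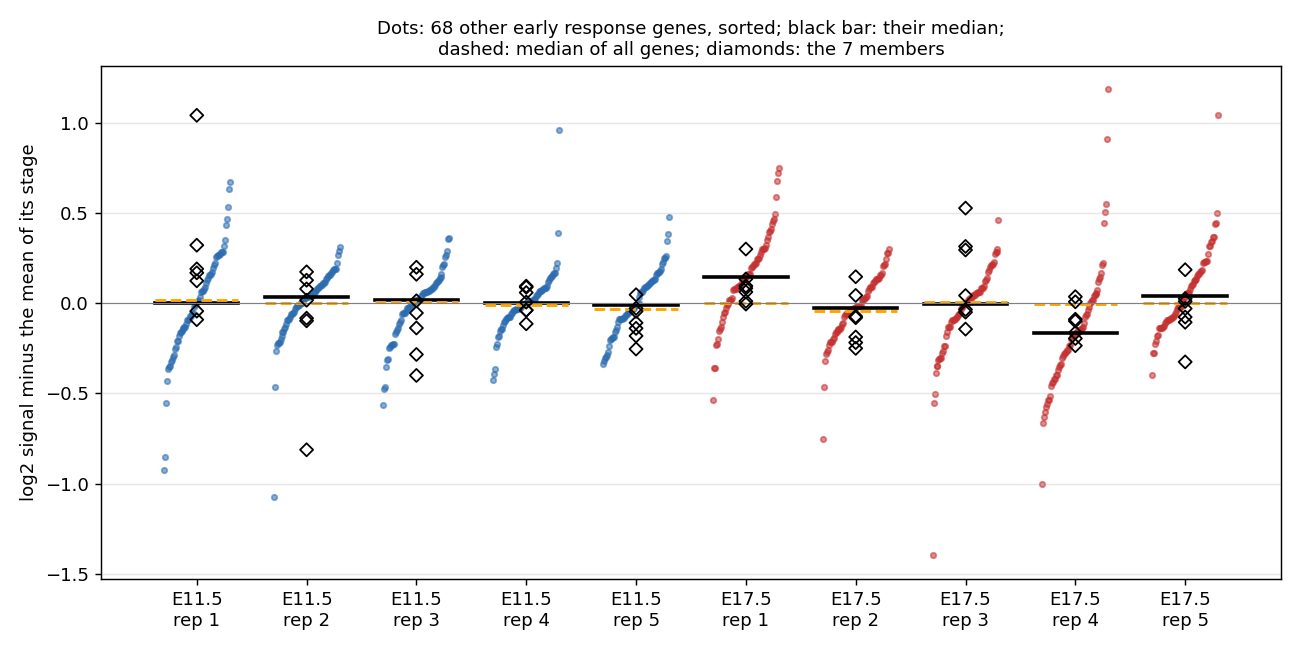
Log2 signal minus the mean of its own stage (y axis) for the 68 other early response genes (dots, sorted within each array, E11.5 blue and E17.5 red), with their median (black bar), the median of all genes (dashed) and the 7 members (diamonds) on each of the 10 arrays. The median of the early genes lies at 0.15 on E17.5 replicate 1 and at -0.16 on E17.5 replicate 4, while the highest diamond, *Fos* on E11.5 replicate 1, lies at 1.04.

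Profiles over the 10 arrays were compared by the root mean square (RMS) difference between log2 signals after each gene's own mean was taken off, so that 0 means the same profile. With a stage difference this large, likeness rests mostly on its size, and it says nothing of shared function or control. Among the members, *Fos* and *Egr2* were 0.46 apart, *Fosb* and *Egr2* 0.60, *Fos* and *Fosb* 0.73, *Nr4a2* and *Nr4a3* 0.36, and *Jund* and *Nr4a2* 1.08. *Dusp1* was at least 1.84 from each of the other members.

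Among 17812 other genes, those nearest to *Fos* were the water channel gene *Aqp1* (RMS difference 0.24) and the cytokine gene *Il33* (0.29). Nearest to *Fosb* were *Napsa*, a protease of surfactant processing (0.19), and *Sec14l3* (0.25). *Jund* lay nearest to the ribosomal protein gene *Rpl39* (0.11) and the cell cycle gene *Cdca3* (0.12). *Egr2* had an early response gene as its nearest neighbour, *Ptgs2* (0.21), before the galectin gene *Lgals3* (0.27). *Nr4a2* was nearest to the AP-1 gene *Atf7* (0.10) and to *Cadm4* (0.12), and *Nr4a3* to *Atcay* (0.10) and *BC005537* (0.10). *Dusp1* was nearest to the leukocyte myosin gene *Myo1f* (0.10) and to *Itm2b* (0.10). Of these 14 neighbours, *Ptgs2* and *Atf7* belong to the early response list.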

How the data were processed

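RNA of E11.5 and E17.5 tip cells was extracted with an RNeasy Mini Kit, amplified and biotin-labelled with Ovation kits (NuGEN) and hybridised to Affymetrix mouse arrays. The authors analysed the arrays with Bioconductor in R and deposited log2 signals for 21204 probe sets on 10 arrays. The sources used here do not say how background was corrected, how arrays were scaled or how these probe sets were picked. The log2 unit was read from the values, 2.47 to 15.03. Precision is limited by how few arrays there are. The median signal was 7.01 to 7.14 on E11.5 arrays and 7.14 to 7.23 on E17.5 arrays.

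Names came from the annotation of the platform (probe sets: 17981 with 1 gene, 514 with several, 2709 with none). The brightest single-gene probe set stood for each of 17813 genes, a choice that arose for 167 of them. Stages were compared with limma 3.58.1 in R 4.3.3 (lmFit, eBayes, E17.5 minus E11.5), with Benjamini-Hochberg adjustment over all genes and calls at an adjusted p under 0.05. The scripts were tested on simulated data. The 7 members and all gene lists were chosen with earlier results of these data known. Named were the members, the measured genes of the AP-1, Egr and Nab, Nr4a and Dusp lists, up to 4 called genes with the largest difference in each other list, the genes of a direction that held 3 or fewer, and the 2 nearest profiles of each member. Genes that did not pass and were counted singly were named after their values were seen. Alternatives were quantile normalization, median centring, other probe set choices, a filter on dim genes, a replicate block, array weights, trend and robust moderation, and leaving out each array.

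Promoter windows came from a RefSeq table of GRCm38.p6 (matched by symbol, 7 of 7), and motifs were searched in Python 3.11.15. Figures were drawn with matplotlib 3.10.9.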

Additional observations from a re-analysis of the deposited data

Results flagged for a closer look

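In 10 of 208 groups of 5 arrays of a named gene, the gap between 1 array and its nearest neighbour exceeded 0.71 of the whole range. Chance gives this in about 1 of 20 groups, or about 10 here. Of the members, *Dusp1* met this, with a log2 signal of 13.55 on E17.5 replicate 4 (nearest other array 13.72). On the same replicate *Sgk1* was at 12.22 (nearest 12.95). On E17.5 replicate 5, *Dusp2* was at 7.13 (nearest 6.59). On E11.5 replicate 1, *Dusp7* was at 9.23 (nearest 9.68), *Nab1* at 6.16 (nearest 5.78), *Hspb1* at 7.81 (nearest 7.15), *Hspe1* at 13.28 (nearest 13.49) and *Map2k6* at 11.82 (nearest 11.98). On E11.5 replicate 2, *Tie1* was at 4.55 (nearest 5.29), and on E11.5 replicate 5, *Batf3* was at 6.90 (nearest 7.22).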

How the results depend on the processing

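No member or named gene changed sign where it was called. For the members the choice of genes and the lack of overlap between stages fix the sign in most settings, so this is no sign of stability. The balance over all genes outside the members turned, from 6564 higher and 5606 lower to 5672 and 6946 after quantile normalization and to 5916 and 6573 after median centring, and that of the MAP kinase cascade turned from 11 and 7 to 8 and 9 after quantile normalization. Over the alternatives, the log2 difference ranged from 6.99 to 7.50 for *Fos*, from 8.17 to 8.43 for *Fosb*, from -3.80 to -3.46 for *Jund*, from 7.12 to 7.44 for *Egr2*, from -1.54 to -1.30 for *Nr4a2*, from -0.88 to -0.68 for *Nr4a3* and from 2.43 to 2.98 for *Dusp1*. Quantile normalization gave 8.17 for *Fosb*, -3.80 for *Jund* and 2.43 for *Dusp1*, and median centring gave -3.62 for *Jund*. Without genes under the median signal of all probe sets, which left 9705 genes, 3403 genes outside the members were lower (5606 with all genes), as were 3 other early response genes (7 with all genes) and 2 genes of ERK feedback (4 with all genes), and 5 AP-1 targets were higher (8 with all genes). Of 7 mesenchymal markers left, 4 were higher and the 4 that were lower before were not among them. Without probe sets of suffix _x, _s or _a, 4 other early response genes were lower. These filters test fewer genes. The count of AP-1 targets that were lower was 2 after quantile normalization and 1 to 2 when 1 array was left out. *Mafg* passed without E11.5 replicate 1 and without E17.5 replicate 5.

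The sources used here do not say whether replicate numbers pair the arrays. Deviations from the stage means correlated between same-numbered arrays at -0.29, -0.18, -0.01, -0.10 and 0.07. Such values cannot show whether these arrays were handled together. With the replicate block, 56 other early response genes were higher and 7 lower (57 and 7 without it), and over all genes outside the members 6381 were higher and 5346 lower (6564 and 5606 without it). No call on a named gene changed with the block. Signal near the floor limits *Nr4a3*, and *Fosb*, *Ptgs2* and *Hspa1a* at E11.5, and low signal limits *Egr2* at E11.5. Signal near the top of the range limits *Fos* and *Egr1* at E17.5.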

Other observations

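Some early response genes outside the members varied within a stage by more than most genes of like signal, a reading made after the values were seen. At E17.5 this held for *Arc*, a gene of synaptic activity, with log2 signals of 8.77, 9.25, 7.73, 10.32 and 9.58 (SD 0.96, larger than that of 99.2% of genes of like signal). *Klf2* (SD 0.66, 98.8%), *Btg2*, an inhibitor of proliferation (SD 0.51, 98.5%), and *Gadd45g* (SD 0.36, 97.4%) varied widely there too.

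At E11.5 the widest spreads were those of *Gem* (SD 0.84, larger than in 99.2% of genes of like signal), with log2 signals of 6.68, 4.93, 5.44, 6.97 and 6.01, and of *Dusp5* (SD 0.54, 99.1%), with 8.97, 10.12, 10.11, 9.89 and 10.37. *Egr1* had an SD of 0.47 (95.5%) at E11.5 and was highest on replicate 1, as *Fos* was. *Btg2* and *Dusp5* were lowest on that replicate. Over the 68 other early response genes, the SD exceeded the median of genes of like signal for 35 at E11.5 and for 44 at E17.5.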
